A study of Mus musculus with 8 samples.

Results

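Ribosomal protein genes of the cytosol were followed in microglia, the macrophages that live in brain tissue, after injury to the optic nerves. Members were every row whose mouse symbol starts with Rpl or Rps and a digit, plus Rplp0, Rplp1, Rplp2 and Rpsa, if the annotation calls the gene protein-coding. Pseudogene rows, the Rps6k kinases, Rps19bp1 and Rpl7l1 were left out. This gave 83 genes of 26062 in the table, 33 of the small and 50 of the large ribosomal subunit. Of these, 81 passed the filter on low counts and were tested among 17390 genes. Rpl3l and Rpl39l did not pass, and Rpl10l was not analysed here.

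All mice were wild-type C57BL/6J males aged 2 to 3 months. The groups were uninjured mice (2 libraries), mice 1 day after crush of both optic nerves (3 libraries) and mice 3 days after it (3 libraries). Microglia were taken from the lateral geniculate nucleus (LGN), a relay of the thalamus that receives the axons of the crushed nerve, and were pulled out with magnetic beads against CD11b, the product of Itgam. RNA was linearly amplified before sequencing. Whether each library is 1 animal or several pooled is not stated in the labels. The p-values thus cover the spread among libraries alone, and that spread may be technical.

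A ribosome has a small subunit, which reads the mRNA, and a large subunit, which joins amino acids and lets the new protein out through a tunnel. Most ribosomal proteins stand on the rRNA once per ribosome, so a cell that builds ribosomes needs them in matched amounts. Their mRNAs commonly start with a run of pyrimidines, the 5′ terminal oligopyrimidine (TOP) tract, through which the kinase mTOR and the protein Larp1 control their translation. A count of mRNA therefore says little by itself of how much of the protein is made.

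The starts of 8 genes are shown to cover members that were higher after the crush, with and without a TOP tract, and members that were not higher. Each line has 40 bases before and 20 bases from the annotated start, 5′ to 3′ on the coding strand, from RefSeq on GRCm38.p6. Capitals mark a tract, a C followed by at least 4 C or T whose first base lies within 5 bases of the annotated start.
Rpsa, chr9:120127726-120127785, plus strand: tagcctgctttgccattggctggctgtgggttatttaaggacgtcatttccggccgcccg
Rpl41, chr10:128549149-128549208, minus strand: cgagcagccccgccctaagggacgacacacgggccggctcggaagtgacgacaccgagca
Rps2, chr17:24720023-24720082, plus strand: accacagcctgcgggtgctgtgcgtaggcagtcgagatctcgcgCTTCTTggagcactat
Rpl31, chr1:39367811-39367870, plus strand: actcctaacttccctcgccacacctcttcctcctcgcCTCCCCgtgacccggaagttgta
Rps18, chr17:33955646-33955705, minus strand: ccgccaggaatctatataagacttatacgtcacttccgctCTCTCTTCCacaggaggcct
Rps27l, chr9:66946046-66946105, plus strand: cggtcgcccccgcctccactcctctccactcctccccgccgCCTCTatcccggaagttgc
Rps6, chr4:86857348-86857407, minus strand: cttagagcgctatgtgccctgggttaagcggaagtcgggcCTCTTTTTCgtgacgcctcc
Rps25, chr9:44407674-44407733, plus strand: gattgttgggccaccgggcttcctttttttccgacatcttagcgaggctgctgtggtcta
Rps27l has a further annotated start, without a tract. The coordinates belong to the RefSeq sequences and not to the count table, whose processing notes name the build mm9.

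Libraries held 12700098 to 17994861 counts, and mitochondrially encoded genes took 13.6 to 30.3% of them. The 10 microglial markers summed to 8254 to 10852 CPM (read counts relative to a TMM-corrected library total) in uninjured, 11794 to 14499 CPM in day 1 and 8076 to 9542 CPM in day 3 libraries, and none was at 0. Markers of other cells moved with time as well. The 8 choroid plexus and ependyma markers summed to 527 to 5544 CPM in uninjured, 1.09 to 56.6 CPM in day 1 and 624 to 3588 CPM in day 3 libraries, with Folr1 and Otx2 at 0 in all day 1 libraries. The 10 endothelial markers summed to 1544 to 1676, 730 to 903 and 1339 to 1411 CPM in the same order. Summed levels of the 6 monocyte markers were 578 to 603, 259.7 to 297 and 352 to 532 CPM in that order. Those of the 6 neutrophil markers were 31.1 to 38.9, 47.3 to 136 and 17.98 to 38.4 CPM. Those of the 6 border macrophage markers were 514 to 654, 469 to 695 and 361 to 448 CPM. The 7 neuronal markers stayed at or under 13.5 CPM. The part of these markers in the results was not tested, and in bulk RNA fewer cells of a type and less RNA per cell cannot be told apart.

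Together the 83 genes took less than 1% of the counts in every library. Their share was 0.446 and 0.614% in the uninjured libraries, 0.573, 0.698 and 0.605% at day 1, and 0.858, 0.834 and 0.799% at day 3. All 3 day 3 libraries lay above all the others, while the day 1 libraries overlapped the uninjured ones. The group means were 0.530 ± 0.119% (SD, n = 2), 0.625 ± 0.0648% (SD, n = 3) and 0.830 ± 0.0299% (SD, n = 3). Small-subunit genes held 0.225 ± 0.0584, 0.266 ± 0.0247 and 0.357 ± 0.0154% of counts in the same order, and large-subunit genes 0.305 ± 0.0603, 0.359 ± 0.0401 and 0.473 ± 0.0156%. With mitochondrially encoded genes left out of the total, the shares averaged 0.679, 0.753 and 1.14%. Mitochondrially encoded genes themselves averaged 21.9% of counts in uninjured libraries, 16.5% at day 1 and 27.3% at day 3.

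**Figure D1:**
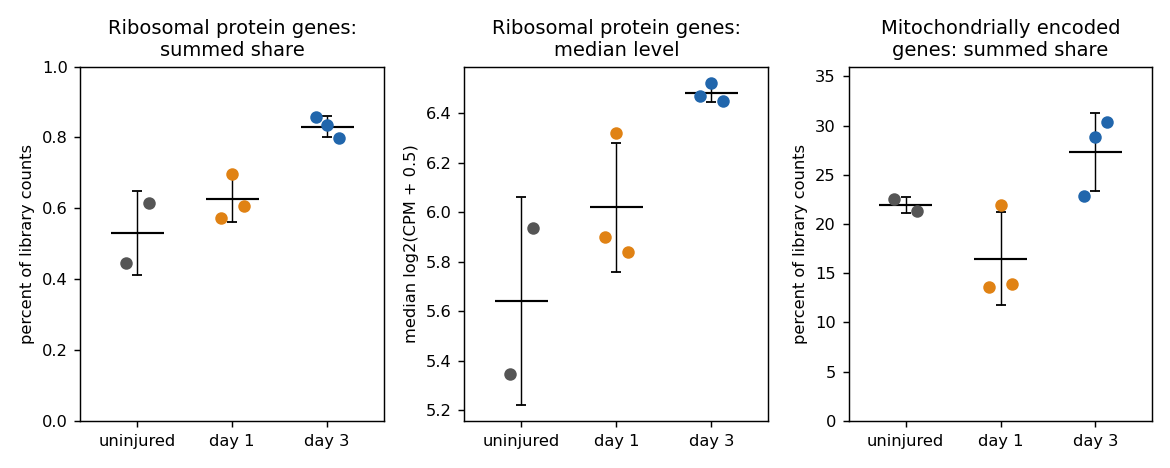
Share of each library's counts in ribosomal protein genes (percent), the median level of the 81 tested members (log2 of CPM plus 0.5) and the share in mitochondrially encoded genes (percent), by group; points are libraries, lines are means and bars are SD. All 3 day 3 libraries lie above 0.79% in the left panel, and no other library passes 0.698%.

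Libraries of a group differed across the members. Uninjured replicate 2 lay above uninjured replicate 1 in 73 of the 81 tested members (90.1%), against 50.1% of all tested genes. Day 1 replicate 2 was the highest of its group in 62 members (76.5%), against 35.03% of all tested genes. The median member level, as log2 of CPM plus 0.5, was 5.34 and 5.94 in uninjured libraries, 5.90, 6.32 and 5.84 at day 1, and 6.47, 6.52 and 6.45 at day 3. Uninjured replicate 1, with the lowest members, also had the most Ttr mRNA, a choroid plexus product, at 5157 CPM, against 484 CPM in uninjured replicate 2. Day 1 replicate 2, with the highest members of its group, had 54.2 CPM of Ttr against 0.467 and 0.986 CPM in the other day 1 libraries, and 21.9% mitochondrially encoded counts against 13.6 and 13.9%. The part of these differences in the results was not tested.

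Levels per kilobase of transcript, averaged over all 8 libraries, had a median of 96.1 CPM per kilobase over the tested members, with the middle of the range between 51.4 and 142. Length is the median over annotated coding transcripts, which need not be the transcripts present in these cells. It is 3706 bases for Rps20 and 5130 for Rps15a, so their 53.3 and 26.4 CPM per kilobase, and the ranking, are uncertain. Highest was Rpl4, which lines the exit tunnel, at 345 CPM per kilobase, followed by Rps24 at 270.3, Rps27 at 263, Rps12 at 259, Rps4x at 242 and Rps25 at 233. At the other end, Rpl3l, the muscle paralog of Rpl3, had 0.0618 CPM per kilobase and Rpl39l, the testis paralog of Rpl39, had 0.812. Rpl24, Rpl23a and Rpl35, all of the large subunit, stood at 2.66, 4.04 and 4.63 CPM per kilobase, and the paralog Rpl22l1 at 4.64. Rpl24, Rpl23a and Rpl35 share 47.0, 62.3 and 66.2% of their exonic bases with other annotated genes. Reads there cannot be given to 1 gene by position alone, so values of these genes are uncertain. The same holds for Rpl13a, which shares 35.4% of its exonic bases and stood at 179 CPM per kilobase. In all, 39 of the 83 members share some exonic bases with another gene, 28 on the same strand and 19 on the opposite one, and the strand setting of the counting is not given in the sources used here.

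Counts can also be split between a gene and its processed pseudogenes. Pseudogene rows named after members held 4.003 ± 0.0440% of the joint counts in uninjured libraries (SD, n = 2), 3.94 ± 0.515% at day 1 and 5.76 ± 1.15% at day 3 (SD, n = 3 each). Among tested members, 51 have such rows, and in 5 they hold over 20% of the joint counts. These are Rpl10a (56.4%), Rpl23a (48.8%), Rps16 (31.7%), Rpl31 (29.3%) and Rps6 (20.9%), whose values below are uncertain for that reason. Rpsa and Rpl41 have no such row, and for Rpl32 it holds 0.109% of joint counts.

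At 1 day after the crush only Rpsa rose among the tested members. Rpsa (ENSMUSG00000032518), a small-subunit protein beside the channel where mRNA leaves the ribosome, was measured at 128, 130.1 and 110.5 CPM at day 1, against 43.3 and 69.9 CPM in uninjured libraries. All day 1 libraries lay above both uninjured ones. The log2 fold change was 1.12 ± 0.21 (SE; adjusted p = 0.0146, edgeR's quasi-likelihood test with Benjamini-Hochberg adjustment). Without uninjured replicate 1 it was 0.81 with an adjusted p of 0.334, and in a fit of these groups alone the adjusted p was 0.0996, so it was called in neither fit.

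That is 1 of 81 members called higher (1.23%), against 0.61% of all tested genes called higher. No member was called lower by edgeR, DESeq2 or limma-voom, against 1.16% of all tested genes called lower. At an unadjusted p under 0.05, 15 members were higher and none lower, against 7.3% and 7.47% of all tested genes. There were 17 members with all day 1 libraries above the uninjured ones, against 14.3% of all tested genes. The median log2 fold change was 0.36 over the members and 0.06 over all tested genes, and 79 members had a positive value. Other genes with a mean over 100 CPM had a median of 0.26 in the same comparison. Without uninjured replicate 1 the member median was 0.14, and without day 1 replicate 2 it was 0.15.

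After Rpsa, the next largest day 1 values did not pass edgeR's test. Rps27l, a paralog of Rps27 known as a p53 target, had 6.93, 38.1 and 15.8 CPM at day 1, against 9.72 and 9.48 CPM in uninjured libraries (log2 fold change 1.08 ± 0.54, SE; adjusted p = 0.375), and the groups overlapped. Rps14, a platform protein near the mRNA exit, had 36.4, 17.3 and 19.8 CPM at day 1, against 9.88 and 16.9 CPM in uninjured libraries (log2 fold change 0.87 ± 0.44, SE; adjusted p = 0.38). Rpl36a, an X-linked protein near the exit site for tRNA, had 31.2, 53.5 and 44.4 CPM at day 1, against 21.5 and 25.9 CPM in uninjured libraries (log2 fold change 0.86 ± 0.27, SE; adjusted p = 0.135), and DESeq2 called it higher. Rps14 and Rpl36a did not overlap between the groups. The only negative values were those of Rpl23a (−0.35 ± 0.82, SE) and Rpl24 (−0.06 ± 0.98, SE), both under 4 CPM in every library.

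At 3 days after the crush 28 members rose, 15 of the small and 13 of the large subunit. These are 34.6% of the tested members, against 2.49% of all tested genes called higher. No member was called lower by edgeR, DESeq2 or limma-voom, against 0.983% of all tested genes called lower. The median log2 fold change was 0.81 over the members (0.80 for the small and 0.81 for the large subunit) and −0.0016 over all tested genes. At an unadjusted p under 0.05, 53 members were higher and none lower, against 9.21% and 6.6% of all tested genes. Positive values were found in 75 members, and 28 had a log2 fold change over 1. In 62 members all day 3 libraries lay above both uninjured ones, against 20.1% of all tested genes. In 1 member, Rps6, they lay below, against 19.3% of all tested genes.

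The count of 28 rested on every library of the comparison. It was 1 without uninjured replicate 1, 12 without uninjured replicate 2, and 7, 11 and 3 without day 3 replicates 1, 2 and 3. The median over the members stayed between 0.64 and 1.09 in these and the other fits with a library left out. DESeq2 called 42 members higher, limma-voom 39 and a fit of these groups alone 41. With counts scaled to library size alone, 15 members were called, the median of all tested genes was −0.15 and that of the members 0.66. Rpsa alone was called in every alternative fit.

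**Figure D2:**
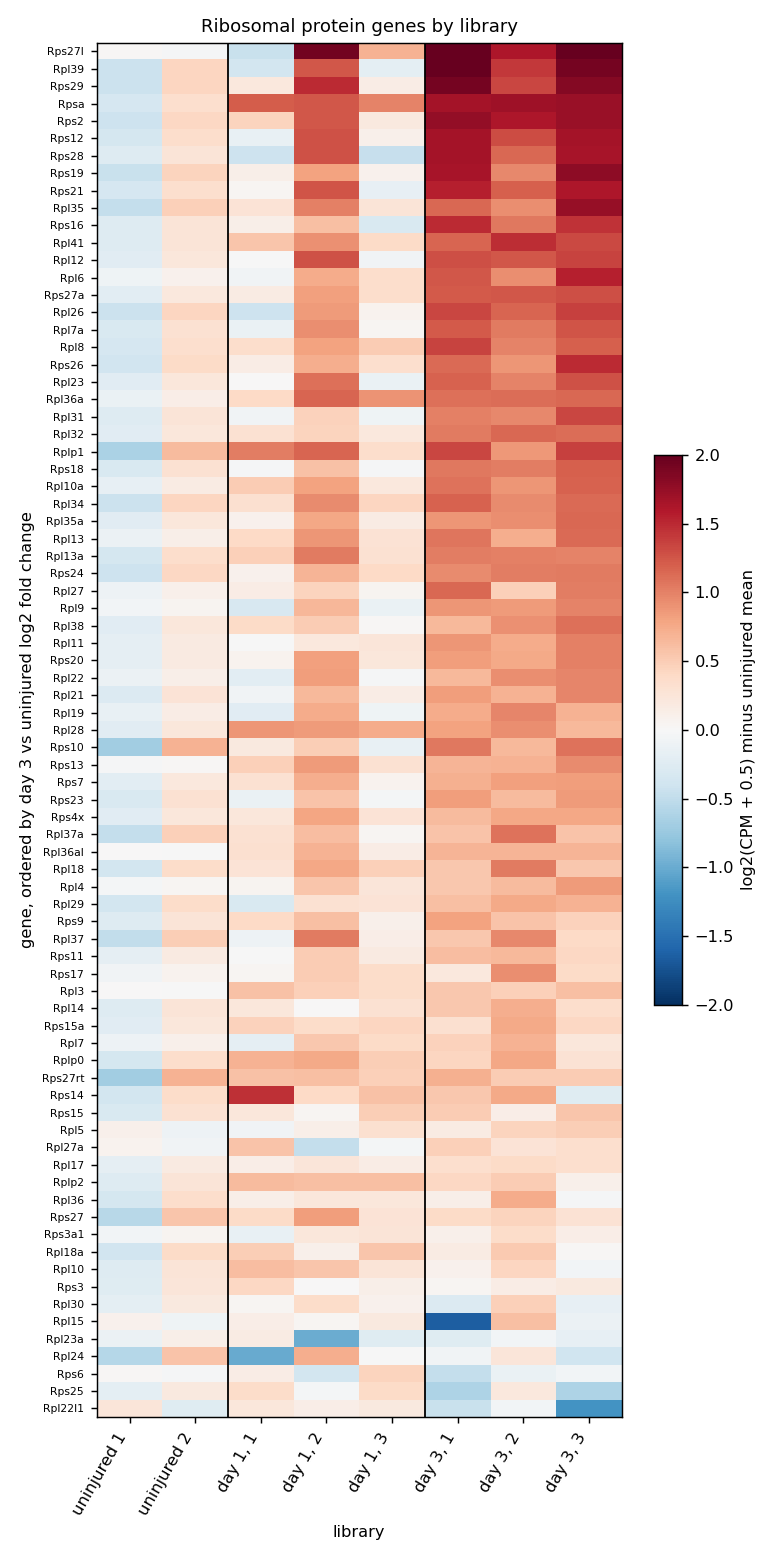
Difference of log2(CPM + 0.5) from the uninjured mean in each of the 8 libraries for 79 of the 81 tested members, ordered by log2 fold change of day 3 over uninjured; red is higher and blue lower, with the scale ending at 2 in each direction. The day 3 columns are red in nearly all rows, and the bottom rows (Rpl24, Rps6, Rps25, Rpl22l1) are not.

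Rpsa had the smallest p at day 3 as well. Its levels were 175, 180.1 and 183 CPM at day 3, against 43.3 and 69.9 CPM in uninjured libraries, with no overlap. The log2 fold change was 1.66 ± 0.22 (SE; adjusted p = 0.000645), and with 1 library left out it lay between 1.35 and 2.05, with adjusted p at or under 0.0138. The start of Rpsa shown above has no TOP tract in the window searched.

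Rpl41 and Rpl32, both of the large subunit, followed. Rpl41 (ENSMUSG00000093674), which encodes a very short, highly basic protein at the face between the subunits, was at 133, 164 and 148 CPM at day 3, against 49.4 and 70.1 CPM in uninjured libraries. Its log2 fold change was 1.31 ± 0.23 (SE; adjusted p = 0.00514). Rpl32 (ENSMUSG00000057841) was at 149, 160.2 and 156 CPM at day 3, against 61.4 and 83.7 CPM in uninjured libraries, and its log2 fold change was 1.09 ± 0.19 (SE; adjusted p = 0.00621). In both genes each day 3 library exceeded every uninjured and every day 1 library. Without uninjured replicate 1 neither passed, with adjusted p of 0.12 for Rpl41 and 0.148 for Rpl32.

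Among small-subunit members, Rps2, which lies at the entry of the mRNA channel, had 168, 153 and 165 CPM at day 3, against 37.1 and 66.1 CPM in uninjured libraries. The difference was 1.65 ± 0.31 on the log2 scale (SE; adjusted p = 0.0083). Every day 3 library exceeded every other library. Rps27a, made as a fusion with ubiquitin that is cut off later, had 106, 107 and 109.8 CPM at day 3, against 38.7 and 51.9 CPM in uninjured libraries (log2 fold change 1.25 ± 0.24, SE; adjusted p = 0.00924). Rps16, whose tail reaches the tRNA at the P site, had 86.6, 63.9 and 83.6 CPM at day 3, against 25.5 and 36.3 CPM in uninjured libraries (log2 fold change 1.34 ± 0.30, SE; adjusted p = 0.0238). These genes too were clear of overlap between the groups.

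**Figure D3:**
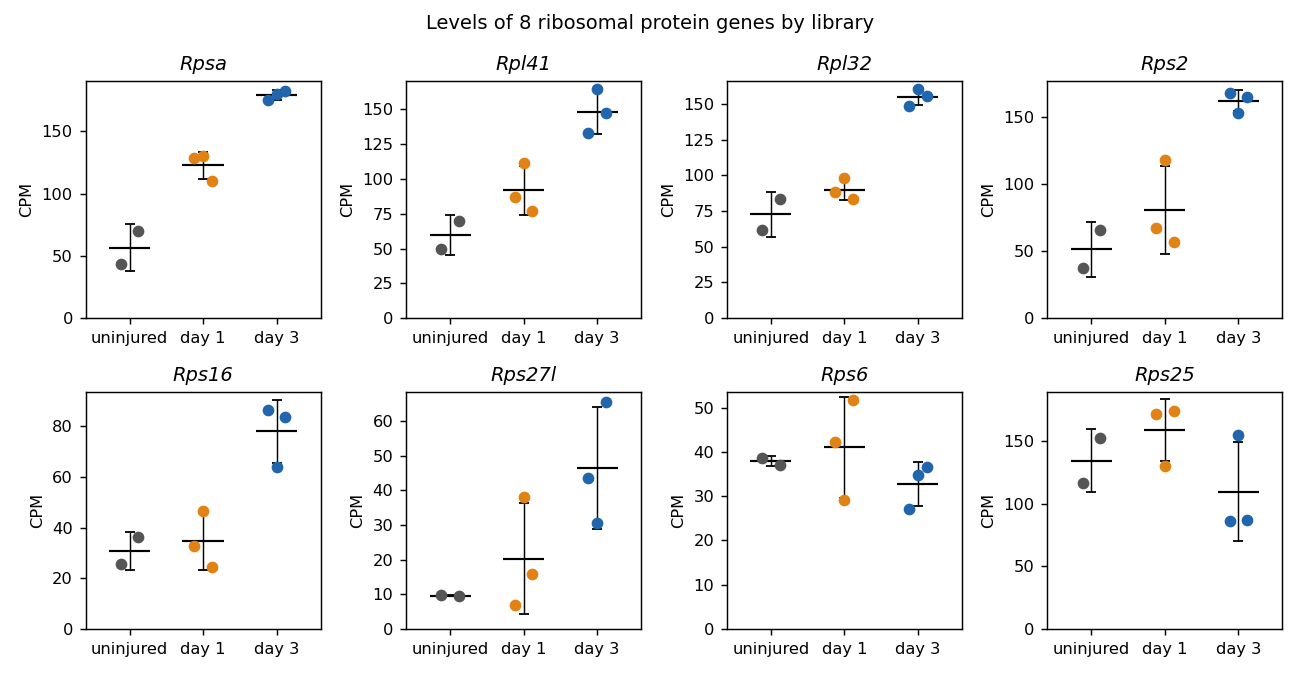
Levels in CPM of 8 ribosomal protein genes by group; points are libraries, lines are means and bars are SD. Rpsa, Rpl41, Rpl32, Rps2 and Rps16 have all day 3 libraries above all others, Rps27l spreads widely after the crush, and Rps6 and Rps25 have day 3 means below the uninjured means.

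Of the large subunit, Rpl6 was at 237, 190.2 and 294 CPM at day 3, against 94.0 and 106 CPM in uninjured libraries (log2 fold change 1.27 ± 0.24, SE; adjusted p = 0.00929). Rpl13 was at 122, 96.3 and 128 CPM, against 53.4 and 63.2 CPM (log2 fold change 0.98 ± 0.23, SE; adjusted p = 0.0281). Both sit on the outer shell of the subunit, and in both the groups did not overlap. The other called members beside those given here and below included Rps18, Rps12, Rpl7a, Rps19, Rpl13a, Rps20, Rps24, Rps21 and Rps26, with log2 fold changes from 0.87 for Rps20 to 1.52 for Rps12.

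By place in the ribosome, members that rose came from most sites. At the peptidyl transferase centre and the tRNA sites, 3 of 5 rose: Rpl8, which contacts the catalytic rRNA, Rpl10a, of the L1 stalk at the tRNA exit, and Rpl36a. Rpl8 had 129.97, 101 and 117 CPM at day 3, against 39.96 and 64.4 CPM in uninjured libraries (log2 fold change 1.15 ± 0.24, SE; adjusted p = 0.0164). Rpl10a, for which most joint counts lie in pseudogene rows, had 80.1, 69.5 and 85.5 CPM, against 33.6 and 42.0 CPM (log2 fold change 1.05 ± 0.24, SE; adjusted p = 0.0275). Rpl36a was at 51.3, 51.6 and 53.01 CPM, against 21.5 and 25.9 CPM (log2 fold change 1.13 ± 0.27, SE; adjusted p = 0.0359). In all 3 the day 3 libraries lay above both uninjured ones. The other members of that site, Rpl3 and Rpl10, had log2 fold changes of 0.54 ± 0.16 (SE; adjusted p = 0.086) and 0.15 ± 0.21 (SE; adjusted p = 0.833).

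Along the exit tunnel 3 of 8 rose: Rpl4, Rpl39 and Rpl31. Rpl39, a very small protein inside the tunnel wall, had 102, 65.2 and 92.1 CPM at day 3, against 17.8 and 32.4 CPM in uninjured libraries (log2 fold change 1.78 ± 0.44, SE; adjusted p = 0.0404). Rpl31, at the tunnel mouth, had 94.3, 91.5 and 118 CPM, against 38.7 and 56.1 CPM (log2 fold change 1.10 ± 0.25, SE; adjusted p = 0.0279). Rpl4 had 588, 626 and 725 CPM, against 395 and 413 CPM (log2 fold change 0.68 ± 0.17, SE; adjusted p = 0.042). All 3 were without overlap, and Rpl4, the most abundant member, had the smallest change of the 28 that rose.

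At the mRNA exit 3 of 5 rose, Rpsa and Rps26 among them, and at the mRNA entry and decoding site 1 of 4 (Rps2). Rps3, Rps15 and Rps23 of that site had log2 fold changes of 0.11, 0.38 and 0.74 with adjusted p of 0.883, 0.498 and 0.13. Of the stalk that recruits the elongation factors and its base, Rpl12 rose, with 226, 219 and 236 CPM at day 3, against 78.8 and 107 CPM in uninjured libraries (log2 fold change 1.28 ± 0.33, SE; adjusted p = 0.0472). The stalk proteins Rplp0 and Rplp2 had their highest group mean at day 1. Rplp0 had 73.3 and 121 CPM in uninjured libraries, 153, 159 and 132 CPM at day 1, and 127, 162 and 116 CPM at day 3, with an adjusted p of 0.333 for day 3 over uninjured. Rpl5 and Rpl11, which carry the 5S rRNA and can bind the p53 regulator Mdm2, had log2 fold changes of 0.38 ± 0.23 (SE; adjusted p = 0.481) and 0.88 ± 0.25 (SE; adjusted p = 0.0688) at day 3.

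The 3 largest log2 fold changes at day 3 over uninjured belonged to genes with short transcripts, of 390 to 612 bases. Rps27l had 43.7, 30.5 and 65.4 CPM at day 3, against 9.72 and 9.48 CPM in uninjured libraries (log2 fold change 2.28 ± 0.56, SE; adjusted p = 0.0392). Rps29, a zinc-binding protein of the small-subunit head, had 81.8, 54.5 and 77.6 CPM, against 15.8 and 28.7 CPM (log2 fold change 1.68 ± 0.41, SE; adjusted p = 0.0381). Both were clear of overlap. Rpl39, above, lay between them.

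A few members lay the other way, and none of them passed the test. Rpl22l1, a paralog of Rpl22, had 1.83, 2.53 and 0.887 CPM at day 3, against 3.26 and 2.16 CPM in uninjured libraries (log2 fold change −0.63 ± 0.79, SE; adjusted p = 0.796). Rps25, needed for initiation at some viral internal entry sites, had 86.4, 155 and 87.0 CPM, against 117 and 152 CPM (log2 fold change −0.30 ± 0.25, SE; adjusted p = 0.655). Rps6, the small-subunit protein that S6 kinase phosphorylates downstream of mTOR, had 27.1, 34.7 and 36.6 CPM, against 38.7 and 37.1 CPM (log2 fold change −0.21 ± 0.28, SE; adjusted p = 0.815). Rps6 lay below both uninjured libraries in each day 3 library, while Rps25 and Rpl22l1 overlapped. Rps6 starts on a TOP tract of 9 bases, and Rps25 has none within 5 bases of its annotated start. The bases shown for Rps25 do hold a run of C and T further upstream.

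Paralogs are set beside their main genes here. Rps27l counts were 16.9 and 8.41% of the Rps27l and Rps27 counts in uninjured libraries, 7.05, 23.3 and 15.7% at day 1, and 32.2, 24.2 and 43.3% at day 3. All day 3 values lay above the others. Rps27 itself had 91.9, 95.4 and 85.8 CPM at day 3, against 47.7 and 103 CPM in uninjured libraries (log2 fold change 0.27 ± 0.28, SE; adjusted p = 0.731). Rps27rt, another copy of Rps27, took 6.59 and 8.46% of the counts of its pair in uninjured libraries, 8.85, 6.63 and 8.76% at day 1, and 9.53, 8.04 and 8.83% at day 3. Its log2 fold change for day 3 over uninjured was 0.44 ± 0.52 (SE; adjusted p = 0.775). Rpl22l1 counts were 3.97 and 2.27% of the Rpl22l1 and Rpl22 counts in uninjured libraries, 4.15, 1.89 and 3.59% at day 1, and 1.34, 1.52 and 0.524% at day 3. Rpl22 had 134, 164 and 168 CPM at day 3, against 78.9 and 93.3 CPM in uninjured libraries (log2 fold change 0.86 ± 0.27, SE; adjusted p = 0.109). Rpl39l and Rpl3l had at most 34 and 4 counts in any library. The autosomal Rpl36al, a near copy of Rpl36a, had 47.2, 47.7 and 47.5 CPM at day 3, against 29.6 and 29.2 CPM (log2 fold change 0.69 ± 0.25, SE; adjusted p = 0.176). Reads of such close copies can be split by the counting, and the shares within pairs were not tested.

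Between day 3 and day 1, 16 members rose, 7 of the small and 9 of the large subunit. These are 19.8% of the tested members, against 5.24% of all tested genes called higher. No member was called lower by edgeR, by DESeq2 or by limma-voom, against 5.75% of all tested genes, and before adjustment 38 members were higher and 1, Rps25, lower at a p under 0.05, against 13.1% of all tested genes each way. The median log2 fold change was 0.44 over the members and 0.02 over all tested genes, while other genes with a mean over 100 CPM had a median of −0.33. In 32 members all day 3 libraries lay above all day 1 libraries, against 16.1% of all tested genes, and in 2 (Rpl22l1 and Rplp2) they lay below, against 13.6%.

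Rpl32 had the smallest p of the members, with 149, 160.2 and 156 CPM at day 3 against 88.4, 97.8 and 83.2 CPM at day 1 (log2 fold change 0.79 ± 0.17, SE; adjusted p = 0.00832). Its groups were far apart, and it was the only member called with each library left out and in every other alternative, with log2 fold changes of 0.73 to 0.85 when a library was left out. Rps16 had 86.6, 63.9 and 83.6 CPM at day 3 against 32.9, 46.5 and 24.4 CPM at day 1 (log2 fold change 1.17 ± 0.26, SE; adjusted p = 0.00993). Rpl31 had 94.3, 91.5 and 118 CPM at day 3 against 44.2, 64.3 and 44.0 CPM at day 1 (log2 fold change 0.995 ± 0.22, SE; adjusted p = 0.00998). These too did not overlap. The other called members included Rpl6, Rps18, Rps27a, Rps2, Rpl39, Rps19, Rpl41, Rpl26, Rpl9, Rpl11 and Rpl7a, with adjusted p from 0.014 for Rpl6 to 0.0467 for Rpl7a.

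Rps18, of the small-subunit head, had 112, 109 and 123 CPM at day 3 against 52.3, 79.9 and 52.6 CPM at day 1 (log2 fold change 0.89 ± 0.22, SE; adjusted p = 0.0167). Rps19, a head protein mutated in human Diamond-Blackfan anaemia, had 60.5, 37.1 and 66.8 CPM at day 3 against 20.5, 33.4 and 20.02 CPM at day 1 (log2 fold change 1.15 ± 0.32, SE; adjusted p = 0.0321). Rpl26, near the tunnel mouth, had 114, 101 and 117 CPM at day 3 against 33.5, 81.4 and 47.1 CPM at day 1 (log2 fold change 1.03 ± 0.29, SE; adjusted p = 0.0362). In all 3 genes day 1 replicate 2 was nearest to the day 3 libraries. Without that replicate 34 members were called higher, and without day 1 replicate 1 or 3 the count was 3 or 4. Leaving out day 3 replicates 1, 2 and 3 gave 3, 7 and 1, and without day 3 replicate 2 Rps25 was called lower (log2 fold change −0.88).

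Group means lay in the order uninjured, day 1, day 3 in 66 of 81 tested members (81.5%), against 18% of all tested genes. In 31 members (38.3%) every day 3 library lay above every other library, against 8.87% of all tested genes. The comparisons of day 3 share their day 3 libraries, and 13 members were called in both, among them Rpl31, Rpl32, Rpl39, Rpl41, Rpl6, Rpl7a, Rps16, Rps18, Rps19, Rps2 and Rps27a. For day 3 over day 1, Rpsa, which rose at day 1, differed by 0.55 ± 0.18 on the log2 scale (SE; adjusted p = 0.0685).

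**Figure D4:**
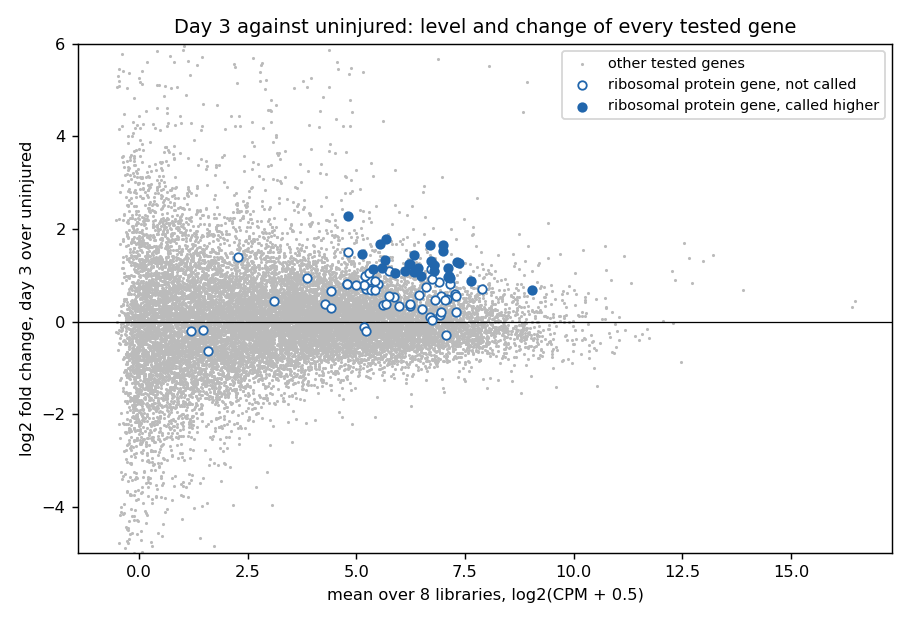
Mean level over the 8 libraries (log2 of CPM plus 0.5, horizontal) and log2 fold change of day 3 over uninjured (vertical) for all tested genes; grey points are other genes, open circles are members not called and filled circles the 28 members called higher. Members lie mostly above 0, and the members at the low end of the horizontal axis are open.

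Transcript length and level were set beside the changes. Spearman's rho of the day 3 log2 fold change over uninjured was −0.05 with transcript length and 0.07 with mean level over the 81 members, which share libraries and are not independent. Short genes outside the list also had positive medians. Other protein-coding genes with a median transcript length up to 600 bases had a median log2 fold change of 0.65 at day 3 (188 genes), those from 600 to 1000 bases 0.32 (791 genes) and longer ones 0.01 (12523 genes). Members of the same classes had medians of 0.79 (24 genes), 0.85 (40 genes) and 0.68 (17 genes). Rps20 and Rps15a fall in the longest class by their annotated lengths of 3706 and 5130 bases, which are uncertain as said above. The calls were 8 of 24 members against 7.98% of other genes in the shortest class, 14 of 40 against 3.29% in the middle class and 6 of 17 against 2.81% in the longest. For day 3 over day 1 the shortest class went the other way. There 2 of 24 members were called (8.33%) against 14.4% of other genes, with medians of 0.33 and 0.57. In the middle class 12 of 40 members were called against 7.96% of other genes, and in the longest 2 of 17 against 6.12%. The part of transcript length in the result was not tested. Pseudogene rows of the members had a median of 1.23 at day 3 over 81 tested rows, of which 3 were called higher.

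Members with and without a TOP tract at the annotated start had close medians. RefSeq promoters matched 63 of the 83 members, and 30 of these (47.6%) hold a tract on the coding strand, as defined for the sequences above, against 21.2% of 27025 genes in the same table. At day 3 over uninjured, the 30 with a tract had a median log2 fold change of 0.85 with 11 called. The 31 tested members without one had a median of 0.86 with 10 called. Tracts were sought only within 5 bases of the annotated start, so a tract at a start placed elsewhere was missed. The 31 are thus not shown to lack TOP tracts, and the medians do not compare TOP mRNAs with others. Rpsa and Rpl41 stand without a tract in the sequences above, Rps2, Rpl31 and Rps18 with one, and Rps6 with one of the longest runs shown. In the 300 bases around the start, on either strand, CCGGAAG, the core bound by ETS factors, occurs in 41.3% of members against 9.93% of all genes. GGGCGG, the GC box, occurs in 60.3% against 38.2%, AAGATGGC, the YY1 core, in 7.94% against 3.19%, and TATAAA in 11.1% against 15.7%. These are matches of letters and not binding sites.

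Genes of ribosomal proteins made as fusions and of Rack1 formed a list of 3, of which 2 passed the filter on low counts, and both rose at day 3 over uninjured. Fau, whose product is split into a ubiquitin-like protein and Rps30, had 152, 79.4 and 134 CPM at day 3, against 40.4 and 68.4 CPM in uninjured libraries (log2 fold change 1.16 ± 0.29, SE; adjusted p = 0.042). Rack1, a scaffold on the small-subunit head, had 313, 251 and 343 CPM, against 109.7 and 156 CPM (log2 fold change 1.19 ± 0.28, SE; adjusted p = 0.0283). Both were without overlap, and neither passed at day 1 (adjusted p of 0.547 and 0.35).

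At day 3 over uninjured, edgeR called genes that make rRNA and assemble ribosomes at a share near that of all tested genes (2.49% called higher). Most of them had positive values. Of 14 genes of RNA polymerase I and its factors, none was called in any comparison. At an unadjusted p under 0.05, 0, 1 and 1 were higher at day 1 over uninjured, day 3 over uninjured and day 3 over day 1. The shares of all tested genes were 7.3, 9.21 and 13.1% in the same order. DESeq2 called 0, 1 and 0 of the 14 and limma-voom none. Their median log2 fold change at day 3 over uninjured was 0.24. Of 88 assembly factors, 3 rose at day 3 over uninjured and none was called lower, with a median of 0.38. At an unadjusted p under 0.05, 16 were higher and 1 lower, against 9.21% and 6.6% of all tested genes. Positive values were found in 74 of the 88, against 49.9% of all tested genes. DESeq2 called 6 higher and 1 lower and limma-voom 4 higher. The 3 were Npm1, a nucleolar histone chaperone (0.82 ± 0.19, SE; adjusted p = 0.0308), Ncl, or nucleolin (0.76 ± 0.19, SE; adjusted p = 0.042), and Utp3, of the small-subunit processome (0.92 ± 0.24, SE; adjusted p = 0.0491). At day 1 no assembly factor was called by edgeR or limma-voom, and DESeq2 called 1. At an unadjusted p under 0.05, 12 were higher and none lower, against 7.3% and 7.47% of all tested genes. Positive values were found in 75 of the 88 at day 1, against 54% of all tested genes.

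Calls among translation factors at day 3 over uninjured were mostly higher. In that comparison 2.49% of all tested genes were called higher and 0.983% lower. Of 38 initiation factors, 6 rose and 1 fell at day 3 over uninjured (median 0.59). Eif3i, a subunit of the eIF3 complex that loads mRNA on the small subunit, had 112, 72.0 and 95.5 CPM, against 26.6 and 28.9 CPM (log2 fold change 1.75 ± 0.31, SE; adjusted p = 0.00654), with no overlap. Eif5, which triggers GTP hydrolysis at the start codon, fell to 484, 737 and 401 CPM at day 3, against 1064 and 871 CPM in uninjured libraries (log2 fold change −0.84 ± 0.21, SE; adjusted p = 0.0389). Of 13 elongation factors 2 rose at day 3 over uninjured (median 0.42): Eef1g, of the complex that recharges the tRNA carrier (1.06 ± 0.18, SE; adjusted p = 0.00528), and Eif5a, which helps at stalling peptides (1.38 ± 0.25, SE; adjusted p = 0.00643). None of the 13 was called lower by edgeR or limma-voom, while DESeq2 called 1 lower, as did an unadjusted p under 0.05. Of 23 other genes whose mRNAs are known to carry TOP tracts, 6 rose at day 3 over uninjured and none was called lower by edgeR, DESeq2, limma-voom or an unadjusted p under 0.05 (median 0.54). That list shares members with the lists above, Eef1g, Pabpc1, Npm1, Rack1, Fau and Eif3f among them.

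In the lists of translation, ribosome production and stress genes, 3 genes rose at day 1 over uninjured. These were 1 each of 38 initiation factors, 32 genes of mTOR and MYC control and 19 genes of ribosome quality control and stress response. EdgeR called none of 88 assembly factors, 14 RNA polymerase I genes, 13 elongation factors and 23 other TOP genes. Nor did it call any of 12 genes of p53, its regulators and its targets. Among all tested genes, 0.61% were called higher in that comparison. Eif4a1, the RNA helicase of the cap complex, had 343, 401 and 319 CPM at day 1, against 213 and 215 CPM in uninjured libraries (log2 fold change 0.73 ± 0.16, SE; adjusted p = 0.0357). Rptor, the subunit that defines the mTOR complex acting on translation, had 269, 256 and 218 CPM, against 134 and 154 CPM (log2 fold change 0.78 ± 0.17, SE; adjusted p = 0.0336). Ppp1r15a, which turns off the integrated stress response, had 281, 358 and 257 CPM, against 127 and 169 CPM (log2 fold change 1.01 ± 0.19, SE; adjusted p = 0.0167). All 3 were without overlap at day 1, and for day 3 over uninjured their adjusted p were 0.593, 0.428 and 0.968. All 3 fell at day 3 over day 1, by 0.51, 1.08 and 1.04 on the log2 scale with adjusted p of 0.034, 0.000498 and 0.00147. Myc, a driver of ribosome production, had 399, 289.7 and 343 CPM at day 1, against 199 and 242 CPM (log2 fold change 0.64 ± 0.18, SE; adjusted p = 0.0836). Of 32 genes of mTOR and MYC control, Rptor was the only one edgeR called at day 1, while DESeq2 and limma-voom each called 2 higher. At day 3 over uninjured edgeR called none, and DESeq2 and limma-voom each called 1 lower. Before adjustment 6 were higher and 3 lower there at a p under 0.05, against 9.21% and 6.6% of all tested genes. At day 3 over day 1 edgeR called 1 higher and 4 lower, against 5.24% and 5.75% of all tested genes.

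In the lists of p53 genes and of ribosome quality control and stress response genes, 2 genes rose and 1 fell at day 3 over uninjured. In that comparison 2.49% of all tested genes were called higher and 0.983% lower. Of 12 genes of p53, its regulators and its targets, 1 rose at day 3 over uninjured. It was Cdkn1a, a cell-cycle inhibitor, with 330.2, 333 and 421 CPM against 175 and 212 CPM (log2 fold change 0.90 ± 0.23, SE; adjusted p = 0.042). A link of this list to ribosome assembly was not tested. Of 19 genes of ribosome quality control and the integrated stress response, Trib3, a pseudokinase induced by stress, rose and Ddit3 fell at day 3 over uninjured. Trib3 had 3.66, 4.02 and 10.8 CPM at day 3, against 0.641 and 0.361 CPM in uninjured libraries (log2 fold change 3.6 ± 0.91, SE; adjusted p = 0.0431), and limma-voom called none of the 19 higher. Ddit3, the stress factor CHOP, had 37.9, 47.9 and 46.7 CPM at day 3, against 81.6 and 88.4 CPM (log2 fold change −0.94 ± 0.21, SE; adjusted p = 0.0204).

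Mitochondrial ribosomal protein genes shifted by about as much as the cytosolic ones at day 3 and yielded no calls there. Over 76 tested genes the median log2 fold change at day 3 over uninjured was 0.76, with 8 called higher by DESeq2 and 1 by limma-voom. At an unadjusted p under 0.05, 17 were higher and 1 lower, against 9.21% and 6.6% of all tested genes. Their summed level was 598 to 611 CPM in uninjured, 600 to 810 CPM in day 1 and 905 to 973 CPM in day 3 libraries, and at day 1 over uninjured their median was 0.11 against 0.36 for the cytosolic members. At day 3 over day 1, 4 of the 76 rose and 1 fell, against 5.24% of all tested genes called higher and 5.75% called lower. Mrps12 rose, with 10.7, 5.81 and 9.84 CPM at day 3 against 0.935, 1.69 and 1.11 CPM at day 1 (log2 fold change 2.81 ± 0.61, SE; adjusted p = 0.00895). Mrps6 fell, with 5.10, 4.47 and 3.47 CPM at day 3 against 14.0, 16.7 and 8.93 CPM at day 1 (log2 fold change −1.60 ± 0.46, SE; adjusted p = 0.0371).

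**Figure D5:**
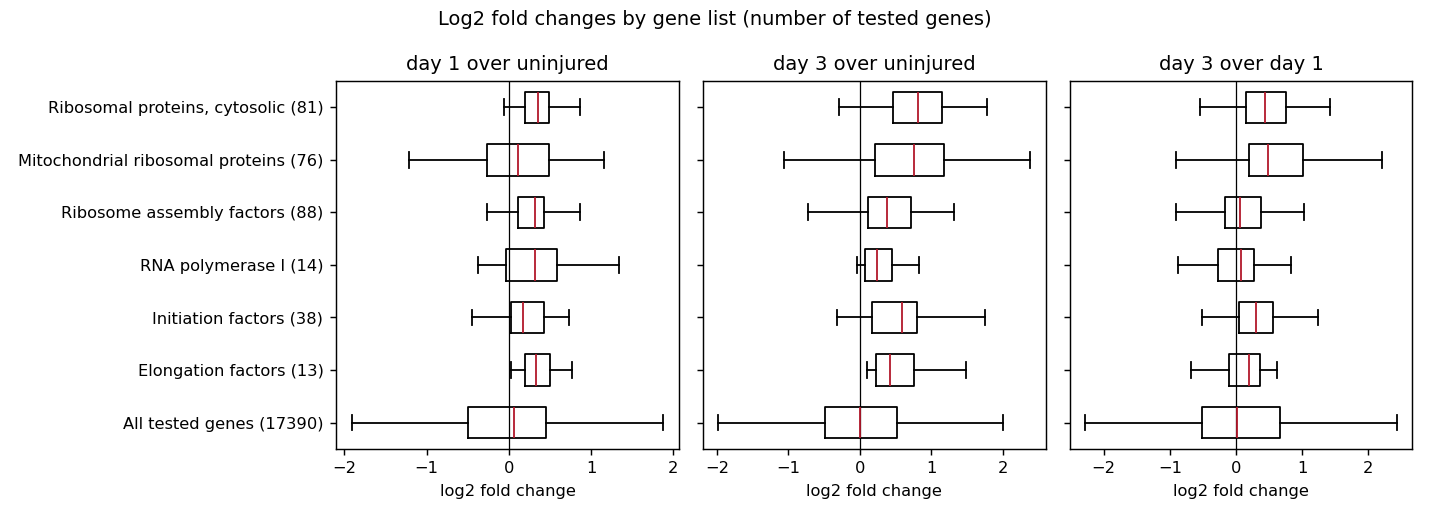
Log2 fold changes of tested genes by list for day 1 over uninjured, day 3 over uninjured and day 3 over day 1; boxes span the quartiles, red lines are medians, whiskers follow the usual box plot rule, and points beyond them are not drawn. In the middle panel the cytosolic and mitochondrial ribosomal protein genes have medians of 0.81 and 0.76, with all tested genes near 0.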

How the data were processed

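The authors deposited raw counts of reads for each Ensembl gene ID, with a column for every library. FastQC, STAR and HTSeq and the build mm9 are named in the submitters' processing notes; which versions, gene annotation and strandedness were used is not given in the sources used here. Per the labels' protocols, RNA was isolated with a micro-scale kit and underwent linear amplification. Symbols, biotypes, exon overlaps and median transcript lengths came from GENCODE M21, which matched 25925 of 26062 IDs (the rest took 0.127% of counts), and promoters from RefSeq (GRCm38.p6).

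The test was edgeR's (version 4.0.16, R 4.3.3) robust quasi-likelihood F-test after filterByExpr and TMM scaling. The fit held all 8 libraries and 3 group means, so that the 2 uninjured libraries borrow the spread of the others. Calls needed a Benjamini-Hochberg adjusted p under 0.05 across the 17390 tested genes, and the biological coefficient of variation was 51.1%. The procedure was also run on simulated counts with known changes. How many of those changes it recovered is not reported here, so the run is no measure of how often real ones are missed. Levels are TMM-scaled CPM, and SE is the size of the log2 fold change divided by the square root of F. Libraries of a group differed by more than sampling noise (chi-square per degree of freedom 34.1 to 70.7).

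The members and gene lists were chosen with earlier results of these data known. Named members are, per comparison, the up to 12 called with the smallest p and the 4 largest changes each way, the 6 highest and 6 lowest per kilobase, paralogs with their main genes, and Rps6, Rplp0, Rpsa, Rpl5, Rpl11 and Rps19; role groups are named as well, and from each other list up to 3 called genes each way. Myc was named after its values were seen. Alternatives were DESeq2 1.42.0, limma-voom (limma 3.58.1), other scaling, no filter, fits of 2 groups, pseudogene rows added to members, a block for the replicate number, and each library left out. A few genes these rules name are counted but not reported by name here.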

Additional observations from a re-analysis of the deposited data

How the results depend on the processing

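No named member changed sign among called values, and the member medians kept their sign in every fit: with 1 library left out they ranged from 0.14 to 0.65 for day 1 over uninjured, 0.64 to 1.09 for day 3 over uninjured and 0.38 to 0.62 for day 3 over day 1. Of the single-gene values under the alternatives, 1905 kept their side of the threshold, 148 lost the call and 53 gained it. The number of members called higher ranged, with 1 library left out, from 0 to 1, from 1 to 36 and from 1 to 34 in the same order, the number called lower at day 3 over day 1 from 0 to 1, and the number of all genes called from 39 to 368, 108 to 982 and 747 to 2362. DESeq2 called 2 members higher at day 1 over uninjured, and 909, 1375 and 3120 of all genes. Library size alone gave 15 members higher at day 3 over uninjured, and it moved the share of higher among all calls to 16.5% at day 1 and 56.5% at day 3 over uninjured, against 34.4% and 71.7% with TMM. The fit of 2 groups alone called 0 members at day 1 over uninjured, and 110 and 1345 of all genes at day 1 and day 3 over uninjured. Limma-voom called higher 53.7% of its calls at day 1 over uninjured, and the replicate block 80.4% at day 3. The cause of these changes was not tested. The member share of counts without mitochondrially encoded genes was 0.679, 0.753 and 1.14% in uninjured, day 1 and day 3 libraries, and with pseudogene rows 0.881% at day 3.

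Same-numbered libraries showed little shared deviation over all tested genes (correlations of −0.060 to 0.091). The deviations of the 2 uninjured libraries mirror each other by construction, so this check cannot exclude a pairing by number. The replicate block gave 1, 25 and 22 members called higher, and 301, 424 and 1700 of all genes. With 2 uninjured libraries, genes at a few CPM such as Rpl24, Rpl23a and Rpl22l1 had SE of 0.79 or more on the log2 scale at day 3 over uninjured, so changes of that size were not detectable at this depth.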
